A study of Arabidopsis thaliana with 11 samples.

Results

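MIOX2 (AT2G19800), BXL1 (AT5G49360, also called ATBXL1) and AT4G18340 encode enzymes that act on myo-inositol or on sugars of the cell wall. These 3 genes, of 11883 genes with a name among the 19521 features tested, were followed in newly made RNA of Arabidopsis root protoplasts that expressed the transcription factor bZIP1 or carried the empty vector. They were chosen by their measured difference between the groups, since the study lists them as induced by bZIP1 on these same arrays. Their levels are therefore given as a description with no test. Each gene was read from its 1 probe set on the ATH1 array, which was 266693_at for MIOX2, 248622_at for BXL1 and 254665_at for AT4G18340.

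Wild-type Col-0 root cells were transfected either with 35S::GR::bZIP1 (4tU-bZIP1, 6 arrays) or with the empty vector pJD385_35S::GR (4tU-EV, 5 arrays). Both constructs run from the constitutive 35S promoter and carry GR, a steroid receptor domain that holds a fused factor in the cytoplasm until dexamethasone is given. All cells of both groups were fed 20 mM KNO3 and NH4NO3 for 1 h 40 min, and 35 µM cycloheximide was added for 20 min to stop protein synthesis, followed by 10 µM dexamethasone for 5 h. They were then given 1.5 mM 4-thiouracil (4tU) with 0.2 mM uracil for 20 min, and RNA that had taken up 4tU was pulled down, amplified and hybridized. The labels call each array a biological replicate and do not say whether the cultures were separate, so the spread between arrays may be partly technical. The assay forces expression of bZIP1 in isolated cells of a whole root. In such a mixture fewer cells of a type and less RNA per cell cannot be told apart.

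In plants, myo-inositol oxygenases open the ring of myo-inositol to give glucuronate. This sugar acid can be turned into UDP-glucuronate, the precursor of the xylose and arabinose units of the wall, so that the enzyme both breaks down inositol and feeds wall synthesis. Beta-xylosidases cut xylose, and in the case of BXL1 also arabinose, from the ends of wall polysaccharides. Glycosyl hydrolases of family 17, to which AT4G18340 belongs, are mostly enzymes that cut beta-1,3-glucans such as callose. Free xylose re-enters metabolism through xylose isomerase and xylulose kinase. bZIP1 is known for its part in the response to low carbon and energy.

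The deposited values are GCRMA intensities on the linear scale, and the lowest value on every array was 4.92. The array 4tU-bZIP1 replicate 1 stood furthest apart. Its median correlation with the other arrays was 0.888, while the others had 0.948 (4tU-EV replicate 5) to 0.969. In it 6312 features reached an intensity of 32, while 6889 to 7239 did in the others. The array weights from limma, which are low for arrays that vary more, were lowest for it at 0.08. Next lowest was 4tU-EV replicate 5 at 0.37. Of the 18 marker genes listed for root cell types and for leaf mesophyll, 2 could be read under a name here. EXPA7, an expansin of root hair cells, was at or near the lowest value on 10 arrays and at 54.98 in 4tU-bZIP1 replicate 1 alone. WER, a factor of non-hair cells, is listed by the study as induced and had medians of 18.9 in 4tU-bZIP1 and 7.38 in 4tU-EV. Its groups overlapped, at 6.98 to 146 in 4tU-bZIP1 and 6.08 to 66.0 in 4tU-EV, and it did not pass the test used here (limma adjusted p = 0.85). The labelled tissue was therefore hardly checked, and the makeup of the sorted cells was not tested. The probe set of bZIP1 itself carries no name here, and its level was not analysed.

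The 3 genes differed in how bright they were and in how far their arrays scattered. MIOX2 was bright in both groups, and AT4G18340 lay between MIOX2 and BXL1 in intensity, with little spread. Among all features AT4G18340 was bright too, since 83.5% had a lower mean log2 value in 4tU-EV and 90.5% in 4tU-bZIP1. BXL1 lay near the lowest measured values in 4tU-EV and was scattered in 4tU-bZIP1. On the log2 scale the differences of 4tU-bZIP1 minus 4tU-EV were 2.16 (standard error 0.31) for MIOX2, 1.32 (standard error 0.53) for BXL1 and 1.06 (standard error 0.12) for AT4G18340. In order of size among the 19521 features MIOX2 was the 17th and AT4G18340 the 184th. BXL1 is given no place, since its 4tU-EV values lie near the lowest measured intensity. In each gene every 4tU-bZIP1 array was above every 4tU-EV array, as in 0.405% of the features tested, while 0.451% had every 4tU-bZIP1 array below every 4tU-EV array. A log2 difference above 1, which all 3 genes had, was found in 1.15% of features. Since this contrast chose the genes, nothing is read from these shares.

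**Figure D1:**
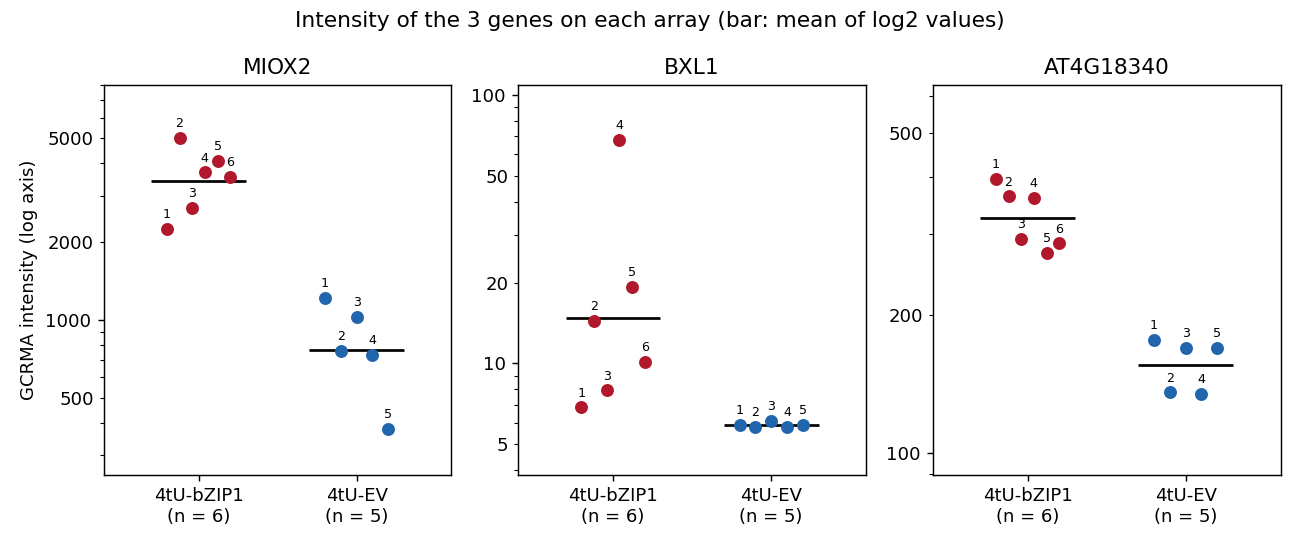
GCRMA intensity (log axis) of MIOX2, BXL1 and AT4G18340 on each array of 4tU-bZIP1 (red, n = 6) and 4tU-EV (blue, n = 5), with the replicate number beside each point and a bar at the mean of the log2 values. The groups are apart in all 3 genes, by the widest margin in MIOX2 and by the narrowest in BXL1, where 4tU-bZIP1 replicate 1 at 6.86 lies just over the highest 4tU-EV array at 6.10.

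MIOX2 encodes a myo-inositol oxygenase, the enzyme that commits myo-inositol to breakdown. Its intensities in 4tU-bZIP1 were 2235 in replicate 1, 5012 in replicate 2, 2692 in replicate 3, 3692 in replicate 4, 4083 in replicate 5 and 3539 in replicate 6. In 4tU-EV they were 1211, 758 and 1023 in replicates 1, 2 and 3, and 733 and 380 in replicates 4 and 5. The lowest array of 4tU-bZIP1 was thus 1.85 times the highest of 4tU-EV. The means were 3542 ± 991 (SD, n = 6) and 821 ± 316 (SD, n = 5). MIOX2 is among the brighter transcripts of these cells even with the empty vector, where 94.6% of features had a lower mean log2 value, and in 4tU-bZIP1 98.9% had a lower one. Within 4tU-EV the values spread 3.19-fold, an SD of 0.64 on the log2 scale, and 84.2% of features had a smaller SD in that group. The low end of that spread was replicate 5 alone. Without it the mean of 4tU-EV was 931 ± 228 (SD, n = 4), and the log2 difference was 1.91. In 4tU-bZIP1 the lowest array was replicate 1, the one that correlated least with the rest, and without it the log2 difference was 2.29.

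AT4G18340 encodes a glycosyl hydrolase of family 17 whose own substrate is not given by the tables used here. Its intensities in 4tU-bZIP1 were 397, 363 and 293 in replicates 1 to 3 and 360, 274 and 287 in replicates 4 to 6. In 4tU-EV they were 176, 136 and 169 in replicates 1 to 3 and 135 and 169 in replicates 4 and 5. Both groups were tight, and a gap of 1.55 times lay between the lowest array of 4tU-bZIP1 and the highest of 4tU-EV. The means were 329 ± 50.7 (SD, n = 6) and 157 ± 20.2 (SD, n = 5), a ratio of 2.09. On the log2 scale the SD was 0.22 in 4tU-bZIP1 and 0.19 in 4tU-EV. AT4G18340 had the smallest SD of the 3 genes within 4tU-bZIP1. Its difference was smaller than that of MIOX2, while its order against BXL1 rested on 1 array, since without 4tU-bZIP1 replicate 4 the log2 differences were 1.03 for AT4G18340 and 0.88 for BXL1. In 4tU-bZIP1 replicate 1, where MIOX2 and BXL1 were at their lowest for the group, AT4G18340 was at its highest.

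BXL1 encodes a beta-xylosidase of the wall. Its intensities in 4tU-bZIP1 were 6.86, 14.4 and 7.93 in replicates 1 to 3 and 68.0, 19.2 and 10.1 in replicates 4 to 6. In 4tU-EV they were nearly the same on all arrays, at 5.91, 5.79, 6.10, 5.79 and 5.91 in replicates 1 to 5. The values in 4tU-EV lie where 35.4% to 37.8% of all features on the same arrays were at or below them, close to the lowest value a probe set can take here. A level of 5.9 is therefore read as a dim probe set and not as a measured amount. In 4tU-bZIP1 the highest array was 9.91 times the lowest, and 91.8% of features had a smaller SD of log2 values in that group. The mean of 21.1 ± 23.4 (SD, n = 6) rests on replicate 4, without which it was 11.7 ± 5.09 (SD, n = 5) and the log2 difference was 0.88. With all values under 16 raised to 16, which 4 of the 6 arrays of 4tU-bZIP1 are under, the log2 difference was 0.39.

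Most probe sets as dim as that of BXL1 in 4tU-EV stayed under 16 on every 4tU-bZIP1 array too. Of the 6945 features under an intensity of 8 on every 4tU-EV array, 6.88% had at least 1 array of 4tU-bZIP1 at 16 or more, and 0.706% had at least 2, as BXL1 did in replicates 4 and 5. In 0.0576% of them (4 features, BXL1 included) all arrays of 4tU-bZIP1 were above all of 4tU-EV. The level of 16 and that of 8 were chosen with the values of BXL1 known, so these shares place the gene and test nothing.

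**Figure D2:**
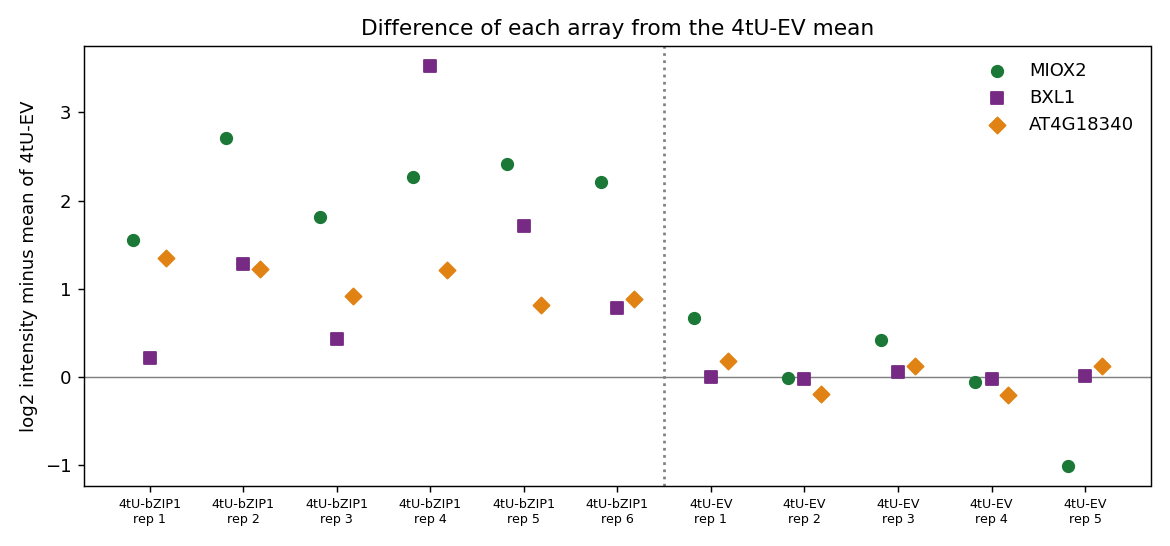
Difference of each array from the mean of 4tU-EV (log2 intensity) for MIOX2 (circles), BXL1 (squares) and AT4G18340 (diamonds), with the 6 arrays of 4tU-bZIP1 left of the dotted line and the 5 of 4tU-EV right of it. All 3 genes are above 0 on each 4tU-bZIP1 array, and BXL1 ranges from 0.22 in replicate 1 to 3.53 in replicate 4.

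The highest array of 4tU-bZIP1 was another one in each gene. The difference from the mean of 4tU-EV ran between 1.55 and 2.71 for MIOX2, highest in replicate 2, between 0.22 and 3.53 for BXL1, highest in replicate 4, and between 0.81 and 1.35 for AT4G18340, highest in replicate 1. MIOX2 and BXL1 both had their 3 lowest values in replicates 1, 3 and 6, and over the 6 arrays of 4tU-bZIP1 they had a Pearson correlation of 0.50 and a Spearman correlation of 0.77. For MIOX2 and AT4G18340 these were -0.20 and -0.26 over the same arrays, and for BXL1 and AT4G18340 0.10 and -0.37. When the mean of its own group was taken from each log2 value, which removes the contrast that chose the genes, MIOX2 and BXL1 had a Pearson correlation of 0.30 and a Spearman correlation of 0.39 over the 11 arrays. For MIOX2 and AT4G18340 these were -0.03 and 0.15, and for BXL1 and AT4G18340 they were 0.09 and -0.19. These coefficients are a description over arrays that share their normalization, and leaving out 1 array moved them to between 0.14 and 0.52 for the first pair, -0.21 and 0.23 for the second and -0.31 and 0.41 for the third.

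The named genes whose deviations were most like those of each member were then sought. Among 3858 named genes with a mean log2 value of 5 or more, those most like BXL1 were AT1G72950 (Pearson's r 0.97, Spearman's rho 0.86), AT5G05100 (0.96 and 0.61) and AT5G41400 (0.96 and 0.94). In 4tU-bZIP1 replicate 4 AT1G72950 had an intensity of 1473, while on the other arrays of both groups it had 17.2 to 55.0, and AT5G41400 had 1321 there, while on the others it had 113 to 234. For MIOX2 the closest were AT2G01490, named PAHX for the peroxisomal enzyme phytanoyl-CoA hydroxylase (0.94 and 0.87), AT2G32020 (0.93 and 0.91) and AT1G32460 (0.92 and 0.78). Each of these had the lowest value of its group in 4tU-bZIP1 replicate 1 and in 4tU-EV replicate 5, as MIOX2 did. For AT4G18340 they were AT1G61260 (0.91 and 0.85), AT3G21650 (0.87 and 0.81) and PEX4 (AT5G25760), a ubiquitin-conjugating enzyme of peroxisomes (0.86 and 0.78). None of these 9 genes passed the test between the groups (limma, lowest adjusted p = 0.85). Their coefficients are the highest of a search through 3858 genes over 11 arrays, and such a search yields high values by selection. No relation between these genes and the members was tested, and none is read from them.

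The other genes of the same pathways were read from lists of 120 codes. Since the platform table names few of the genes that have a symbol of their own, 49 of these could be measured here, 46 of them besides the 3 chosen genes. None of the 46 passed limma's test at a Benjamini-Hochberg adjusted p under 0.1, the threshold for a call, in a fit where 0.164% of all features were called higher and 0.0205% lower. At an unadjusted p under 0.05, 3 were higher and 0 were lower, and over all features the shares were 1.51% and 3.23%. The other myo-inositol oxygenases, MIOX1, MIOX4 and MIOX5, and the list of other wall sugar release enzymes were not analysed here.

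**Figure D3:**
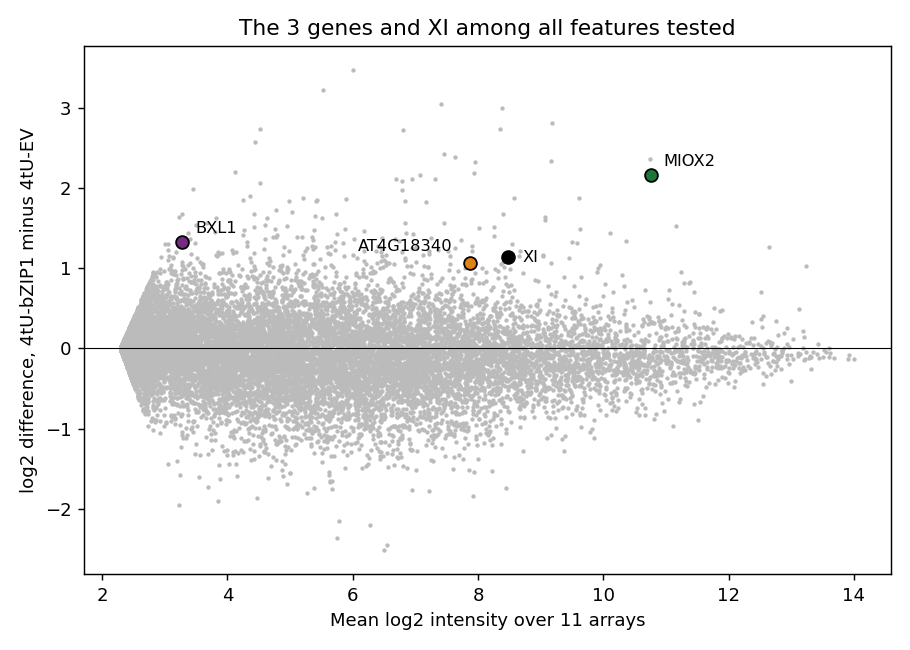
Difference of log2 intensity, 4tU-bZIP1 minus 4tU-EV, against the mean log2 intensity over the 11 arrays, for all 19521 features (grey) and for MIOX2, BXL1, AT4G18340 and the xylose isomerase gene XI. MIOX2 stands at 2.16 among bright features, and BXL1 at 1.32 among dim ones.

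XI (AT5G57655), the xylose isomerase gene, was the measured gene of free sugar salvage, and its values were higher in 4tU-bZIP1 without passing the test. Its intensities were 922, 737 and 291 in replicates 1 to 3 and 511, 373 and 464 in replicates 4 to 6 of 4tU-bZIP1, against 227, 218 and 329 in replicates 1 to 3 and 299 and 134 in replicates 4 and 5 of 4tU-EV. The groups overlapped through 4tU-bZIP1 replicate 3, which was below the highest 4tU-EV array. The log2 difference was 1.14 (standard error 0.33, limma adjusted p = 0.67). The study lists XI as induced too, so that its direction is not independent of that choice.

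On the route of inositol, VTC4 (AT3G02870) encodes a phosphatase that releases myo-inositol and also galactose from their phosphates, and USP (AT5G52560) a pyrophosphorylase that makes UDP-glucuronate from glucuronate phosphate. VTC4 averaged 63.5 ± 36.9 (SD, n = 6) with bZIP1, against 87.7 ± 20.8 (SD, n = 5) with the empty vector, and its log2 difference was -0.71 (limma adjusted p = 0.85), or -0.35 without 4tU-bZIP1 replicate 6. USP had medians of 15.6 in 4tU-bZIP1 and 19.8 in 4tU-EV, and its log2 difference was 0.0039 (limma adjusted p = 1.00). Neither gene passed the test.

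Of the beta-xylosidase family, BXL5, BXL6 and BXL7 were measured beside BXL1, and all were dim. Their medians in 4tU-bZIP1 were 7.42 for BXL5, 8.18 for BXL6 and 8.92 for BXL7, and in 4tU-EV 5.88, 8.07 and 8.98. BXL5 (AT3G19620) had a log2 difference of 0.17, BXL6 (AT5G10560) one of -0.039 and BXL7 (AT1G78060) one of 0.48, and none passed (limma, lowest adjusted p = 0.85). Their high values fell on scattered arrays. BXL5 had 20.1 and 17.5 in 4tU-bZIP1 replicates 1 and 5 and 36.6 in 4tU-EV replicate 5. BXL6 had 41.7 in 4tU-bZIP1 replicate 3 and 23.2 in 4tU-EV replicate 2, and BXL7 had 99.1 in 4tU-bZIP1 replicate 1. Without 4tU-bZIP1 replicate 1 the log2 difference of BXL7 was -0.09. The 6 measured beta-glucosidase-like genes of the same glycosyl hydrolase family 3, a list added after the files were seen, had log2 differences between -0.37 and -0.01. None passed. In 4 of the 6 all arrays were under 16, and 1 had a mean of at least 32 in 4tU-EV. Their shared sign was not stable, since 3 were above 0 after centring on the array median and 2 with array weights.

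**Figure D4:**
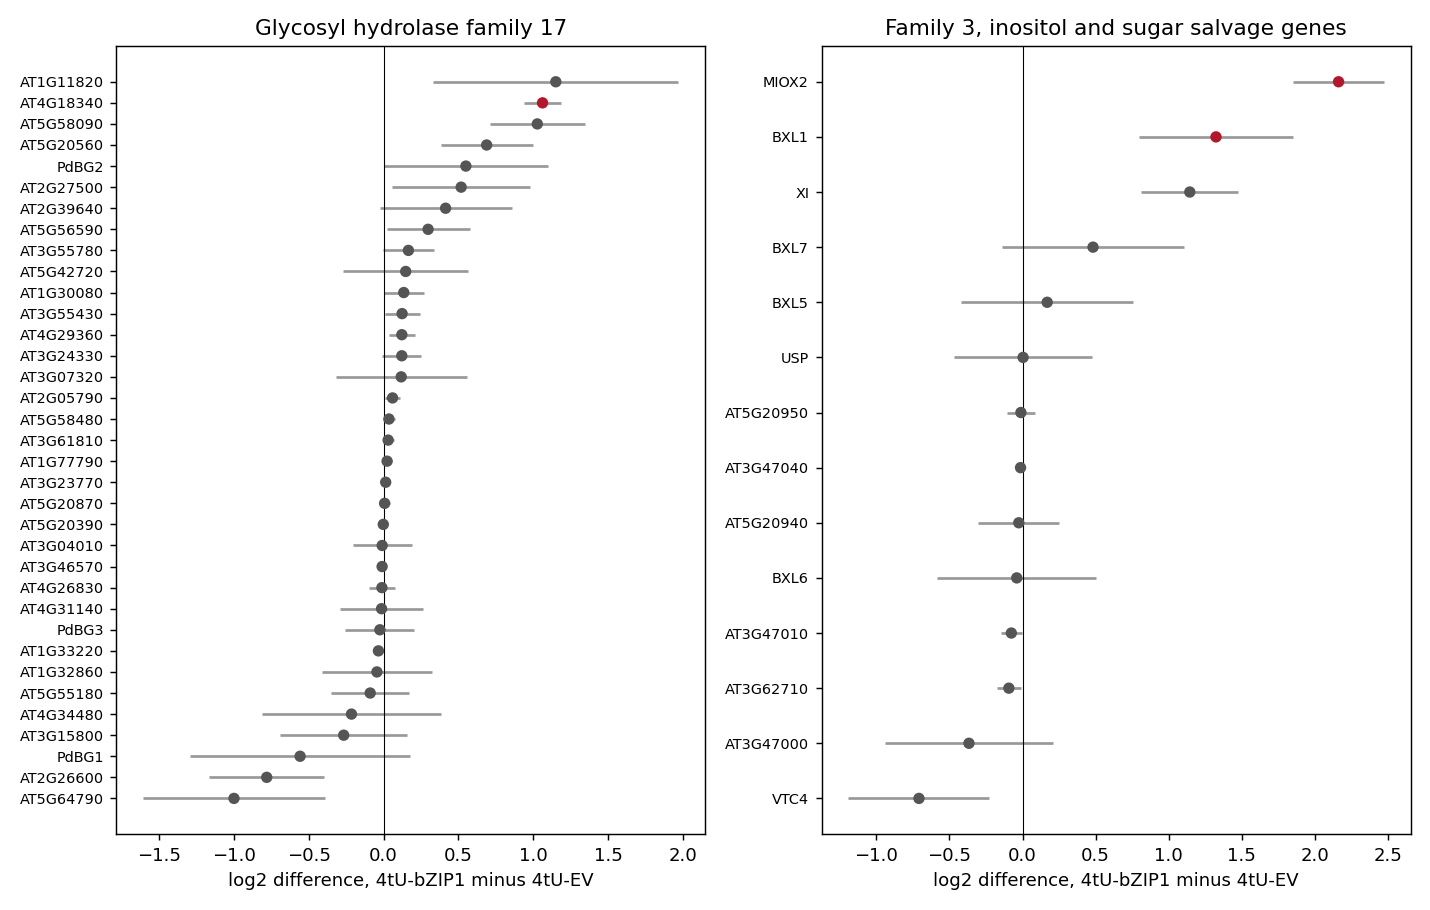
Difference of log2 intensity, 4tU-bZIP1 minus 4tU-EV, with the standard error from limma, for the measured genes of glycosyl hydrolase family 17 (left) and of family 3, the inositol route and sugar salvage (right). The 3 chosen genes are in red and are shown with no test, since this contrast chose them. None of the other 46 passed the test.

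Glycosyl hydrolase family 17 offers the fullest comparison, with 34 measured genes beside AT4G18340. Of these, 0 were higher and 0 were lower by the test, while 2 were higher and 0 were lower at an unadjusted p under 0.05. The median log2 difference of the 34 was 0.03, that of all features was 0.00, and 20 were above 0, a share to be read against 51.6% of all features. In 16 of the 34 all arrays were under 16, and 8 had a mean of at least 32 in 4tU-EV. The groups overlapped in all 34, as they did in all but 0.405% (higher) and 0.451% (lower) of features, so that nothing particular to the family is read from this. AT5G58090 averaged 207 ± 74.1 (SD, n = 6) with bZIP1, against 100.2 ± 35.3 (SD, n = 5) with the empty vector. Its log2 difference was 1.03 (standard error 0.32, limma adjusted p = 0.73), close to that of AT4G18340 in size with a wider spread. The highest log2 difference of the family was 1.15 in AT1G11820 (limma adjusted p = 0.85), which had 257 in 4tU-bZIP1 replicate 1. Its medians were 13.4 in 4tU-bZIP1 and 8.55 in 4tU-EV. AT5G20560 was near the lowest value on all 4tU-EV arrays and at 4.92 to 14.9 in 4tU-bZIP1, a log2 difference of 0.69 (limma adjusted p = 0.85) between values that were all under 16. AT2G26600 averaged 22.6 ± 8.41 (SD, n = 6) with bZIP1, against 37.4 ± 14.3 (SD, n = 5) with the empty vector, for a log2 difference of -0.78 (limma adjusted p = 0.85). It was -0.49 without 4tU-bZIP1 replicate 1 and -0.24 with array weights. AT5G64790, which the study lists as repressed by its own tests, had the lowest log2 difference of the family at -0.999 (limma adjusted p = 0.85). Its medians were 7.50 in 4tU-bZIP1 and 21.6 in 4tU-EV, and the groups overlapped. Bright members of the family did not pass either. The log2 difference of AT3G55430, at 2418 ± 294 (SD, n = 6) with bZIP1, against 2226 ± 321 (SD, n = 5) with the empty vector, was 0.12 (limma adjusted p = 0.85).

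Of the genes next to the members on their chromosomes, those measured under a name were not among the calls, and the others were not analysed. In the order of the RefSeq table (assembly TAIR10.1), 18 protein-coding genes are the nearest 3 on either side of the members, and 7 of them were measured under a name. Their log2 differences lay between -0.59 and 0.28, 0 of them passed by limma, and 0 had an unadjusted p under 0.05. Over all features limma called 0.164% higher and 0.0205% lower, and 1.51% and 3.23% had such an unadjusted p. Nothing is therefore read from the counts of 0. AT2G19780, AT5G49390, AT5G49410 and AT4G18330 were dim, with group means of at most 8.64, so small changes in them cannot be seen. AT4G18330 was the only neighbor of AT4G18340 that was measured. AT5G49350, next to BXL1, averaged 140 ± 42.2 (SD, n = 6) with bZIP1, against 203 ± 52.2 (SD, n = 5) with the empty vector, for a log2 difference of -0.57 (limma adjusted p = 0.85). BXL1 and the native bZIP1 gene lie on the same chromosome with 6 protein-coding genes of that table between them. This comparison of neighbors was added after the values had been seen.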

How the data were processed

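The authors normalized the arrays with GCRMA (version not given in the sources used here), and the deposited values are intensities per probe set on the linear scale for 22810 probe sets and 11 arrays. GCRMA corrects background by base composition, equalizes the arrays and compresses dim values, and the number of arrays limits the precision. No value was changed before log2 was taken (pseudocount 0). Left out were 64 controls, 2312 probe sets constant over the arrays within a relative difference of 1e-06, 448 with several genes and 330 unnamed ones whose suffix marks shared sequence. For each gene the probe set with the highest mean was kept, which gave 19521 features, 11883 of them named. The platform table pairs 13513 probe sets with 1 gene, 503 with several, and a further 118 names, MIOX2 and BXL1 among them, came from the probe and gene columns of the study's Dataset S1, which holds genes the study had called. No sequence was used, and genome positions served only to order neighboring genes in the RefSeq table (TAIR10.1).

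All features entered one fit (R 4.3.3, package limma 3.58.1, functions lmFit and eBayes), in which 4tU-EV was subtracted from 4tU-bZIP1 over the 11 arrays. Features were called at a Benjamini-Hochberg adjusted p under 0.1. The study's own lists join genes called by one-way ANOVA with those called by Rank Product, which was not run here. Other steps used Python 3.11.15, numpy 2.4.6, pandas 2.3.3, scipy 1.17.1 and matplotlib 3.10.9. The fits were also run on simulated normal values with known changes. These held no array that stands apart and no lowest value, so nothing about the present arrays is read from them. The members and lists were chosen with earlier results of these data known. Genes named are the members, in each list those called and up to 3 others with the smallest p, and the 3 named genes most alike to each member. Other genes, AT5G64790 among them, are named for a clause on range, brightness or position and were chosen after their values were seen. The code AT5G14470 was left out because its RefSeq name is that of another kinase. Alternatives were one-way ANOVA, centring on the array median, quantile normalization, a floor of 16, a minimum mean log2 of 5, a trended robust prior, array weights, a threshold of 0.05, the replicate number as a block and each array left out in turn. Replicates 1 to 5 without the block were added after the data were seen. The study's filters for protoplasting and cycloheximide effects need further experiments and were not applied.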

Additional observations from a re-analysis of the deposited data

Results flagged for a closer look

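In 30 checks of a group of arrays, over the 3 members and 9 genes of the lists, 8 found an array whose gap to the next was wider than Dixon's 95% limit. Chance gives this in about 1 group in 20 only for normally distributed values. Intensities near the lowest value need not be so distributed, so the 8 are not set against that rate. The members were checked on intensities and on log2 values and the other genes on intensities. Among the members this was BXL1 in 4tU-bZIP1 replicate 4, at 68.0 with the next array at 19.2 (gap 0.798 of the range), which on the log2 scale stayed under the limit (0.551 against 0.625). The other 7 were all high arrays. USP was at 85.1 in 4tU-bZIP1 replicate 1, where the next array had 22.3. BXL7 was at 99.1 in 4tU-bZIP1 replicate 1 and at 12.8 in 4tU-EV replicate 2. BXL6 was at 41.7 in 4tU-bZIP1 replicate 3 and at 23.2 in 4tU-EV replicate 2, and BXL5 was at 36.6 in 4tU-EV replicate 5. AT5G20560 was at 5.06 in 4tU-EV replicate 3, close to the lowest value of 4.92. Neither MIOX2 nor AT4G18340 had such an array in either group.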

How the results depend on the processing

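The log2 differences of MIOX2 and AT4G18340 stayed within 1 SD of their main values after centring, quantile normalization, the floor of 16 and the replicate block. So they did with the ratio of mean intensities and each array left out. This SD is that of single arrays within groups on the log2 scale, 0.53 for MIOX2 and 0.21 for AT4G18340. It is wider than the standard errors of the differences, 0.31 and 0.12. Values of the members with array weights are not given here. Without 1 array the log2 differences lay between 1.91 and 2.33 for MIOX2, between 0.88 and 1.54 for BXL1 and between 1.00 and 1.11 for AT4G18340. The correlations of deviations lay between 0.14 and 0.52 (MIOX2 and BXL1), -0.21 and 0.23 (MIOX2 and AT4G18340) and -0.31 and 0.41 (BXL1 and AT4G18340). With the floor of 16 BXL1 had 0.39, because that floor hides most of its values. Of the family 17, beta-xylosidase and family 3 lists no gene was called under any alternative, array weights and ANOVA included. The 3 members were left out of these counts, and no call is given for them.

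Over all features, 32 were called higher and 4 lower. These counts were 66 and 27 with array weights and 21 higher with the threshold of 0.05, and 1 lower with a minimum mean log2 of 5. They ran from 17 to 30 higher and from 1 to 11 lower without 1 array. They were 17 and 1 without 4tU-bZIP1 replicate 5, 18 higher without replicate 2, 4 or 6 of that group, 19 higher without 4tU-EV replicate 2, 2 lower without 4tU-bZIP1 replicate 1 and 11 lower without 4tU-EV replicate 5. With the replicate block, on replicates 1 to 5, 0 features were called either way (321 higher and 633 lower at an unadjusted p under 0.05), and with no block on the same arrays 18 higher and 3 lower. Same-numbered arrays had correlations of deviations between 0.01 and 0.11, and the other pairs between -0.13 and 0.12. Low correlations cannot show whether the numbers pair the arrays, and the labels do not say so. Of the genes that did not pass, some near 0 turned in sign. USP had -0.20 with array weights and -0.0068 on replicates 1 to 5 with or without the block. BXL6 had 0.010 after centring, 0.12 with the floor, 0.052 with array weights and 0.021 on replicates 1 to 5 with or without the block. BXL7 had -0.063 with array weights and BXL5 -0.16 with the floor. Without 1 array they lay between -0.39 and 0.19 (USP), -0.45 and 0.25 (BXL6), -0.092 and 0.64 (BXL7) and -0.055 and 0.71 (BXL5). The cause was not tested. BXL1, BXL5, BXL6 and BXL7 lie so near the lowest intensity that small changes in them cannot be seen.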
